A study of Drosophila melanogaster with 48 samples.

Results

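The step from wing imaginal disc to prepupal wing was followed in control flies expressing eGFP at 29 °C, on 4 arrays of prepupal wings and 4 of larval discs. The members were chosen by their titles and make up 8 of the 48 arrays of the study, which also holds pupal wings, animals kept at 19 °C and a line expressing the Hox gene Ubx (isoform Ia). Both groups had the genotype w; UAS-eGFP / + ; nabGal4NP3537 / Tub-Gal80ts. In these flies the transgene is driven by Gal4 inserted in nab, and a ubiquitous temperature-sensitive Gal80 holds Gal4 off at 19 °C. Prepupae were shifted to 29 °C as wandering larvae, collected as white prepupae 10 h later and dissected at 6 h after puparium formation. Larvae were shifted for 16 h and taken while wandering, in the third instar, with a medium blue gut, about 4 h before puparium formation. About 15 to 20 animals were pooled per sample and labelled RNA from 2 µg was hybridised to Affymetrix Drosophila Genome 2.0 arrays. The larval tissue is labelled wing disc, which also carries the primordium of the notum, and the prepupal tissue is labelled wing, so a change within the tissue and a different cut of the tissue cannot be told apart.

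Metamorphosis of the fly wing is timed by pulses of the steroid 20-hydroxyecdysone, which acts through the receptor pair EcR and usp. A pulse at the end of larval life starts eversion of the disc. When the hormone falls again in the prepupa, a second set of regulators comes on and the wing epithelium secretes the pupal cuticle. A further pulse then leads to head eversion and pupation.

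Values are log2 levels after quantile rescaling of all 48 arrays to 1 distribution, with a median of 4.52. Rescaling was needed because the deposited medians were 4.74 to 4.77 on prepupal arrays and 4.45 to 4.49 on larval arrays, and each stage and temperature had a distribution of its own. Replicate arrays correlated across probe sets at 0.9975 to 0.9981 in prepupae and 0.9968 to 0.9982 in larvae, against 0.898 between the means of both stages. Larval replicate 3 stood apart in genes of the larval fat body, a tissue that lies next to the disc. Lsp2, which encodes a larval serum protein, had 7.92, 7.01, 7.52 and 7.40 on prepupal arrays and 5.58, 6.43, 11.50 and 6.16 on larval arrays. The fat body gene Fbp1 was at 10.51 in larval replicate 3 and at 5.09 to 5.24 on the other larval arrays, and neither gene passed the test over all 8 arrays. Without larval replicate 3 both did: the difference was 1.41 for Lsp2 (limma adjusted p = 0.000679) and 2.33 for Fbp1 (adjusted p = 2.22e-05).

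The transcriptome changed broadly within these few hours. Of 18769 probe sets, 12337 (65.7%) differed at an adjusted p under 0.05 (limma, Benjamini-Hochberg), and 3282 (17.5%) also changed at least 2-fold, 1440 higher (7.67%) and 1842 lower (9.81%) in prepupae. Among the 2-fold calls, 3273 had no overlap between the 4 prepupal and the 4 larval values. Read per gene through the brightest probe set, 1141 of 11982 genes (9.52%) were at least 2-fold higher and 1523 (12.7%) at least 2-fold lower, with a median difference of -0.05 over all genes. At an adjusted p under 0.05 alone, 30.6% of genes were higher and 40.7% lower. The counts of each gene list below are to be read against these shares. Large changes were mostly rises: 159 genes rose and 23 fell at least 32-fold. The balance depended on the scaling, since 43.9% of the 2-fold calls were higher after rescaling, 28.3% on the values as deposited and 18.8% with arrays centred on their medians. The median difference of all probe sets was -0.28 with centring, -0.04 after rescaling and 0.005 on the values as deposited. Small shifts of whole gene groups are therefore read below with their values under the other scalings where the sign turns. Normalisation set and stage cannot be told apart.

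The largest rises were in genes of the cuticle and of the epithelium that secretes it. Osi6, of the insect Osiris family of membrane proteins linked to cuticle secretion, had 13.64, 13.50, 13.46 and 13.34 in prepupae and 3.35, 3.33, 3.29 and 3.26 in larvae. The cuticle protein gene Lcp65Ad had 14.07, 14.13, 14.13 and 14.13 in prepupae and 4.14, 4.09, 4.18 and 4.21 in larvae. Edg84A, a cuticle gene of the prepupal epidermis, had 13.72, 14.02, 14.00 and 13.97 in prepupae and 4.13, 4.35, 4.19 and 4.24 in larvae. In all 3 genes the larval arrays were under the array median and the prepupal arrays near the top of the scale, so the groups lay far apart and the size of each rise is limited by what the array can read. The differences were 10.18 (SE 0.09, adjusted p = 5.12e-49), 9.96 (SE 0.10) and 9.70 (SE 0.12) on the log2 scale.

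Behind these came the cytochrome P450 gene Cyp303a1 (9.22), the juvenile hormone binding protein gene Jhbp4 (9.06), the cuticle genes Cpr100A (8.78) and Edg78E (8.73), the Tweedle gene Twdlbeta (8.51), Osi15 (8.50), the zona pellucida domain gene dyl (8.46), the cuticle gene Vajk4 (8.09) and the sulfotransferase gene St3 (7.70). For St3, another probe set showed a rise of 0.87. No detection calls were at hand, and 316 of the 1141 genes that rose 2-fold had a larval mean under the array median, as 301 of the 1523 that fell 2-fold had a prepupal mean under it. For those genes the low side was not shown to be above background.

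Several of these genes were low again in pupae. In pupae at 16 h after puparium formation at 29 °C, Osi6 averaged 3.56, Cyp303a1 3.66, Jhbp4 3.87, dyl 3.86 and Edg84A 5.17, while Cpr100A stayed at 10.80. The opposite course was seen among the largest falls. The lectin gene nw, whose mutants have narrow wings, had 4.46, 4.67, 4.79 and 4.46 in prepupae and 13.11, 13.11, 13.11 and 13.09 in larvae, with no overlap, and averaged 13.90 in pupae. The prepupal values of nw lay near the array median, so the fold is not exact (difference -8.51, SE 0.07, adjusted p = 5.77e-50).

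**Figure D1:**
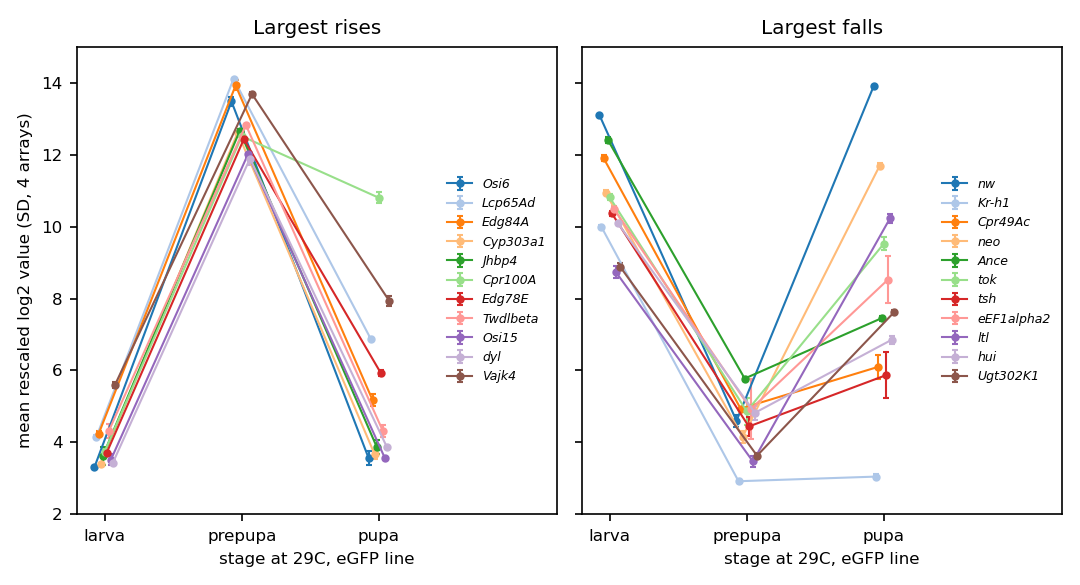
Mean rescaled log2 value (y axis, error bars SD over 4 arrays) in larvae, prepupae and pupae of the eGFP line at 29 °C (x axis) for the genes with the largest rises (left) and falls (right), without St3 and AdamTS-A, whose probe sets differ. All 11 risers are highest in prepupae, with Cpr100A still at 10.80 in pupae, while nw, neo and ltl dip in prepupae only and Kr-h1 stays low.

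Among the other large falls were Cpr49Ac (-6.98), neo (-6.79), which encodes a zona pellucida domain protein of the apical matrix, the peptidase gene Ance (-6.65), the metalloprotease gene tok (-5.95), the elongation factor gene eEF1alpha2 (-5.58), hui (-5.27), the leucine-rich repeat gene ltl (-5.27) and the glycosyltransferase gene Ugt302K1 (-5.26). Pupal means were high again for neo (11.70), ltl (10.23) and tok (9.53). AdamTS-A had a difference of -5.63 by its brightest probe set and 0.34 by the other, so its direction is unsettled. The prepupal values of eEF1alpha2 were 4.26, 4.63, 4.66 and 6.14, a wider spread than that of the other falls.

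Regulators of the ecdysone response were split. Of 22 measured factors, 7 were at least 2-fold higher and 5 at least 2-fold lower. The higher genes include br and Eip93F, whose probe sets differ. The counts were 5 and 5 on the values as deposited and 5 and 6 with centred arrays. The median difference of 0.17 turned to -0.21 as deposited and to -0.49 with centred arrays. The nuclear receptor gene ftz-f1, which opens the mid-prepupal phase, had 11.58, 11.41, 11.53 and 11.37 in prepupae and 4.02, 4.46, 4.09 and 3.92 in larvae. Kr-h1, the zinc finger gene that responds to juvenile hormone, had 2.98, 2.86, 2.92 and 2.90 in prepupae and 10.03, 9.99, 10.03 and 9.92 in larvae. The genes moved in opposite directions with no overlap: ftz-f1 rose by 7.35 (SE 0.20, adjusted p = 8.59e-32) and Kr-h1 fell by 7.08 (SE 0.06, adjusted p = 3.21e-49).

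E23, an ecdysone-induced transporter gene, rose by 4.97 and Eip93F, a specifier of adult fate, by 2.15. Eip93F reached only 4.76, 4.92, 5.43 and 5.01 in prepupae, against 2.90, 3.03, 2.75 and 2.84 in larvae, and averaged 11.08 in pupae. Its other probe set differed by 0.04. Smaller rises were those of the receptor gene Hr3 (1.54), of Sox14 (1.18) and of Met (1.08), which encodes the juvenile hormone receptor.

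Lower in prepupae were vri (-4.22), a bZIP repressor gene that was at 11.08 in pupae, the nuclear receptor genes Eip78C (-3.17) and Hr39 (-1.19), and Blimp-1 (-1.97), which encodes a repressor of ftz-f1. The receptor genes themselves moved little. EcR differed by 0.75 (adjusted p = 1.49e-09) and usp by 0.11 (adjusted p = 0.0271), and both signs depended on the scaling, with 0.0075 for EcR and -0.63 for usp on the values as deposited and -0.28 and -0.92 with centred arrays. The call for usp was also lost without larval replicate 2, prepupal replicate 1 or prepupal replicate 4 (0.088 to 0.097).

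The zinc finger gene br, which encodes the Broad isoforms that specify the pupal stage, gave different answers by probe set. Its brightest probe set had 12.24, 12.23, 12.19 and 12.26 in prepupae and 10.33, 10.51, 10.45 and 10.44 in larvae, a rise of 1.80 without overlap. The other 4 probe sets fell, by 1.00 to 4.00, and the mean of all of them fell by 1.76. Which transcripts each probe set reads is not given in the annotation used here, so the level of the gene as a whole is not settled.

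**Figure D2:**
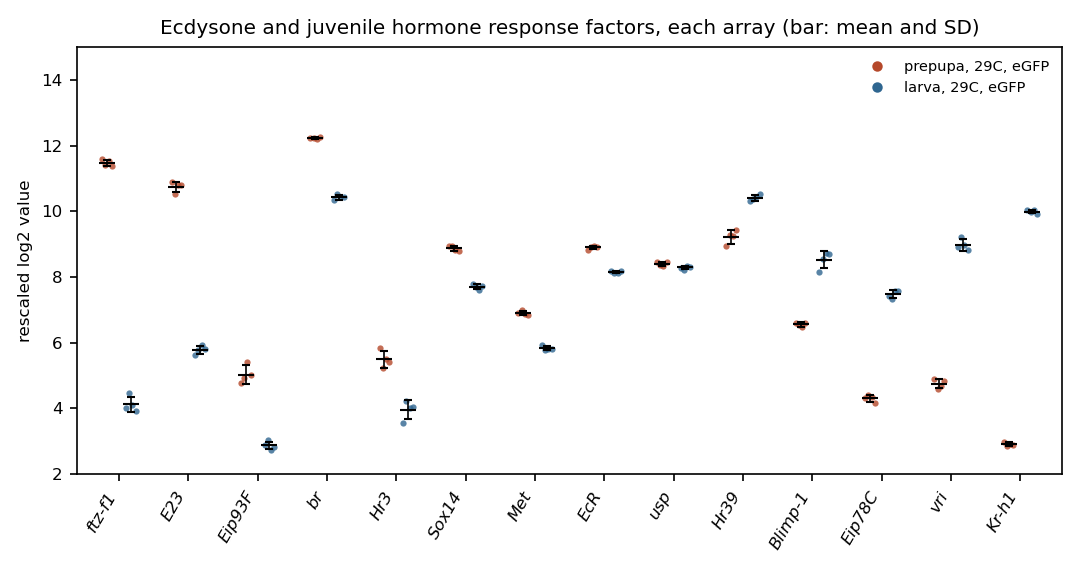
Rescaled log2 value (y axis) of each prepupal (left of each pair) and larval array for 14 regulators of the ecdysone and juvenile hormone response, with the mean and SD of 4 arrays as bars. The prepupal values of ftz-f1 lie between 11.37 and 11.58, far above its larval values, and those of Kr-h1 between 2.86 and 2.98, far below. EcR and usp differ little.

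Among 15 ecdysone-responsive genes, listed mainly for discs but also holding the fat body gene Fbp1, 6 were at least 2-fold higher and 4 at least 2-fold lower. The median was 0.66, and -0.12 with centred arrays. Besides E23, Edg84A and Edg78E, the cuticle gene Edg91 rose by 5.58, Cyp18a1, which encodes an enzyme that inactivates ecdysone, by 5.24, and ImpL1 by 5.97. ImpL1 varied among prepupae, at 11.72, 12.21, 10.62 and 10.33, against 5.21, 5.17, 5.34 and 5.28 in larvae, with no overlap. The 4 genes lower by their brightest probe sets are listed for the early response that accompanies eversion. They were ImpE2 (-2.26), ImpE3 (-2.06), ImpE1 (-1.66) and the serine protease gene Sb (-1.05). In the eGFP line at 19 °C the steps were -0.54 for ImpE2, -1.91 for ImpE3, 0.805 for ImpE1 and -0.12 for Sb. In the Ubx line, at the temperature of the main comparison, they were -2.37, -2.17, -2.36 and 0.23. Only ImpE3 was at least 2-fold lower in each of these steps. For ImpE1 the other 3 probe sets differed by 0.05 to 1.91, so its direction is not settled.

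The cuticle families rose together in part. The family named for the Rebers and Riddiford chitin-binding motif had 29 of 81 members at least 2-fold higher and 5 lower, with a median of 0.49, and 61 members had no overlap between the groups, as had 67.5% of all genes. Besides Lcp65Ad, the Edg genes and Cpr100A, Cpr78Cc rose by 7.09, with 10.78, 11.08, 11.03 and 11.05 in prepupae and 3.95, 3.80, 3.87 and 3.95 in larvae. Cpr49Ac went the other way, with 4.95, 4.94, 4.95 and 4.90 in prepupae and 11.82, 11.84, 11.96 and 12.02 in larvae. It fell together with Cpr64Aa (-4.28), Cpr49Ag (-4.19), Cpr67Fa2 (-1.33) and Cpr78E (-1.20). Cpr78E was at 10.88 in pupae.

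Of 24 Tweedle genes, whose products are cuticle proteins, 7 rose at least 2-fold and none fell (median 0.27; 14 were higher and 3 lower at an adjusted p under 0.05, against 30.6% and 40.7% of all genes). TwdlT had 14.13, 14.09, 14.09 and 14.09 in prepupae and 6.88, 6.49, 6.71 and 6.76 in larvae. TwdlC rose by 6.66 and TwdlE by 5.89, and TwdlE remained at 10.16 in pupae, while TwdlT was at 4.77. The summed linear level of the family, the sum of 2 to the power of each value, was 43100 to 45169 on prepupal arrays and 846.8 to 868.4 on larval arrays.

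Most of the Osiris family rose. Of 24 genes, 15 rose at least 2-fold and none fell 2-fold, and the median was 3.33. Osi20 rose by 7.38, Osi7 by 7.26 and Osi19 by 7.15. By contrast, Osi12 had 3.37, 3.33, 3.41 and 3.37 in prepupae and 3.27, 3.50, 3.34 and 3.31 in larvae, and Osi8 differed by 0.01, both at the low end of the scale with overlapping groups. All 4 Vajk genes, which encode cuticle proteins, rose: Vajk4 by 8.09, Vajk1 by 6.63, Vajk2 by 3.36 and Vajk3 by 3.15.

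Enzymes and proteins that make, bind and modify chitin had 17 of 39 members at least 2-fold higher and 4 lower (median 0.49). The chitin deacetylase gene Cda5 rose by 7.17, obst-E, which encodes a chitin-binding protein, by 6.63, and exp and reb, which control chitin deposition, by 6.16 and 5.76. The gene for the enzyme that makes activated N-acetylglucosamine, mmy, had 12.26, 12.41, 12.39 and 12.43 in prepupae and 7.81, 7.81, 7.73 and 7.83 in larvae, a rise of 4.58 (SE 0.05). The deacetylase genes serp and verm rose by 3.53 and 3.93 and Gasp, for a chitin-binding protein, by 3.66.

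The falls in this group were those of the imaginal disc growth factor gene Idgf4 (-4.81), its relative Idgf6 (-1.07) and the chitinase genes Cht5 (-1.88) and Cht10 (-1.63). Cht5 varied among prepupae, at 6.70, 7.58, 5.96 and 7.40, against 8.81, 8.83, 8.74 and 8.77 in larvae, and averaged 11.29 in pupae. Among 12 genes for apical matrix proteins with a zona pellucida domain, dyl, dy (5.38) and qsm (1.25) rose at least 2-fold and neo fell (3 fell as deposited and 4 centred). The prepupal values of dyl were 12.16, 11.89, 11.77 and 11.76, against 3.39, 3.41, 3.40 and 3.52 in larvae.

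Many genes for cuticle tanning and pigment rose. Of 20 measured genes, 11 rose at least 2-fold and 2, yellow-e (-1.91) and yellow-e3 (-1.02), fell (median 1.07). That count of falls was 1 without larval replicate 2 or 3 or prepupal replicate 1 or 3. Ddc, the gene for dopa decarboxylase, had 12.35, 11.91, 11.84 and 11.94 in prepupae and 5.14, 5.09, 5.18 and 5.46 in larvae, with no overlap (difference 6.79, SE 0.40). Rises were also seen for yellow-h (6.65), yellow-d (4.10), Pu (3.48), which encodes the GTP cyclohydrolase of the pteridine cofactor pathway, and the laccase gene stw (3.22).

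**Figure D3:**
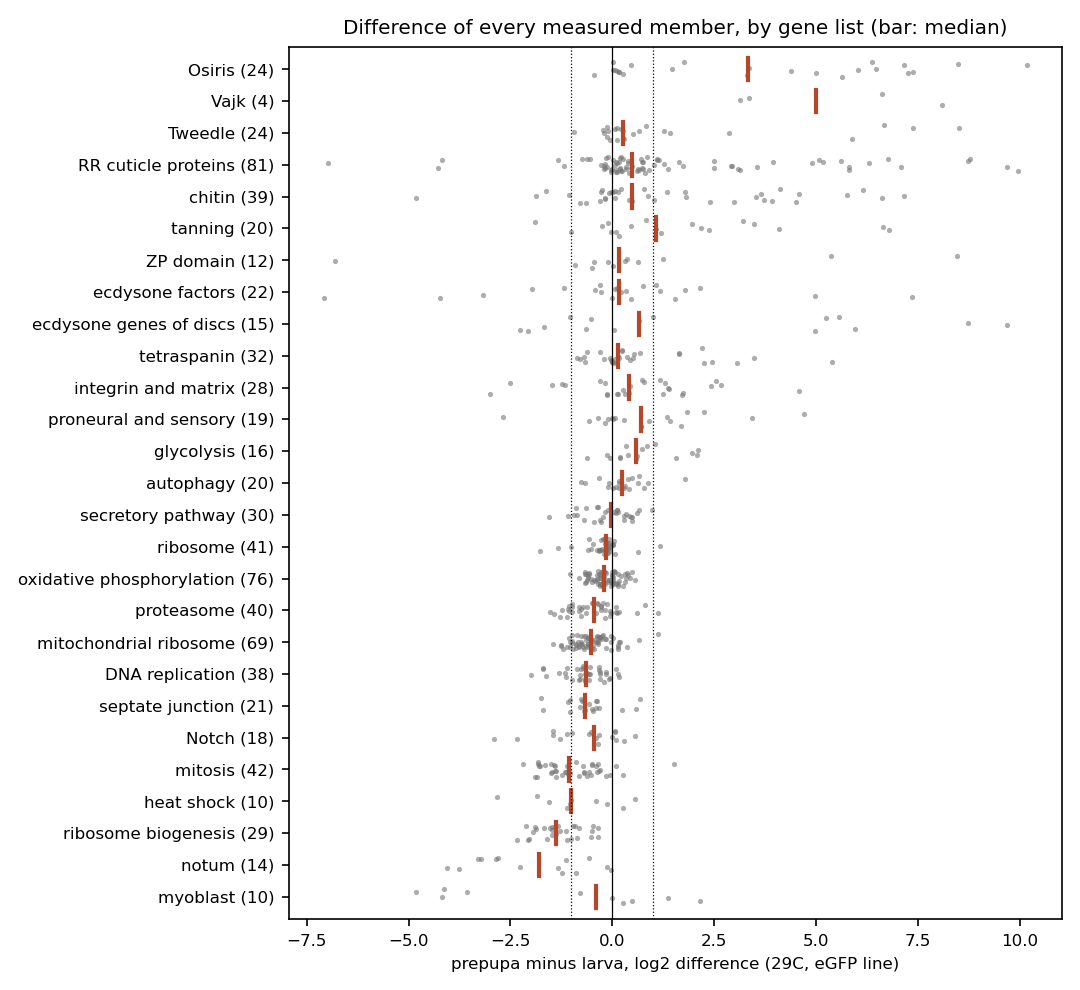
Prepupa minus larva log2 difference (x axis) of every measured member of 27 gene lists (y axis, number of members in brackets). Grey points are genes, the bar is the list's median and dotted lines mark 2-fold; cuticle families extend far to the right, with the Osiris median at 3.33, while ribosome biogenesis lies left of 0 throughout, with its median at -1.38.

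Cell cycle genes were lower in prepupae. Of 42 mitosis genes, 37 were lower and 2 higher at an adjusted p under 0.05, against 40.7% and 30.6% of all genes. The median was -1.06, and 22 were at least 2-fold lower (33 as deposited and 37 centred), against 12.7% of all genes. The kinetochore motor gene cmet had 7.08, 7.10, 7.07 and 7.08 in prepupae and 9.20, 9.31, 9.31 and 9.25 in larvae. The kinetochore gene Nuf2 had 6.56, 6.65, 6.73 and 6.85 in prepupae and 8.53, 8.69, 8.57 and 8.54 in larvae. Both were lower without overlap (cmet -2.18, Nuf2 -1.89) and were joined by the checkpoint genes mad2 (-1.86) and Bub3 (-1.82) and by feo (-1.81).

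The exception above 2-fold was trbl, an inhibitor of mitosis that promotes loss of the Cdc25 phosphatase. It had 9.57, 9.59, 9.55 and 9.51 in prepupae and 8.12, 8.16, 7.96 and 7.87 in larvae, a rise for trbl of 1.53 (SE 0.08, adjusted p = 2.5e-20) that did not reach 2-fold on the other scalings. Mitosis transcripts did not vanish: all 42 genes had prepupal means over the array median. Pupal means of cmet (8.25) and mad2 (9.12) lay between those of prepupae and larvae.

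DNA replication genes shifted less. Of 38, 31 were lower and 1 higher, against 40.7% and 30.6% of all genes (median -0.64). At least 2-fold lower were 8, against 12.7% of all genes, which became 26 on the values as deposited and 34 with centred arrays. The largest falls were those of the clamp loader gene RfC3 (-1.99), dUTPase (-1.71), RPA3 (-1.69), the flap endonuclease gene Fen1 (-1.63) and RfC4 (-1.31).

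Ribosome biogenesis genes were lower throughout. All 29 measured genes were lower at an adjusted p under 0.05 and without overlap, against 67.5% of all genes without overlap, and 20 were at least 2-fold lower (median -1.38). Fibrillarin, encoded by Fib and needed to methylate ribosomal RNA, had 8.63, 8.61, 8.70 and 8.64 in prepupae and 10.90, 10.80, 10.58 and 10.54 in larvae. The helicase gene pths fell by 2.13, La by 2.05 and Nopp140 by 1.95. The cytoplasmic ribosomal protein list, which includes relatives named -like, had a median of -0.16 over 41 genes, and 0.09 on the values as deposited. RpS5b alone was at least 2-fold higher (1.18), and no gene of the list was on the other scalings. At least 2-fold lower were 3, RpS19b (-1.77), RpLP0-like (-1.34) and RpL22-like, against 2 as deposited and 5 with centred arrays.

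Mitochondrial ribosomal protein genes had 8 of 69 at least 2-fold lower, near the 12.7% of all genes, and 1, mRpS17 (1.12), higher (median -0.53). The count of lower genes was 46 on the values as deposited and 55 with centred arrays, and none was 2-fold higher on either. Of 40 proteasome genes, 8 were at least 2-fold lower, led by Prosalpha6 (-1.53), and 1, Rpn13R (1.13), was higher (median -0.44). The lower genes were 16 as deposited and 21 with centred arrays. Oxidative phosphorylation had a median of -0.20 over 76 genes and 1 at least 2-fold lower, ND-B12 (-1.05), against 3 as deposited and 7 with centred arrays.

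Most glycolysis and sugar use genes were higher. Of 16 genes, 13 were higher and 2 lower, against 30.6% and 40.7% of all genes. The median was 0.60, and 5 rose at least 2-fold (3 with centred arrays), against 9.52% of all genes. These 5 were the trehalase gene Treh (2.11), Gpdh1 (2.09), the aldolase gene Ald1 (1.96), Pglym78 (1.56) and Pgi (1.04). Ald1 had 12.71, 12.79, 12.79 and 12.81 in prepupae and 10.74, 10.84, 10.75 and 10.92 in larvae, without overlap. The autophagy kinase gene Atg1 rose by 1.78 and was the only one of 20 autophagy genes past 2-fold (median 0.24, but -0.39 as deposited and -0.68 centred). The insulin-pathway factor foxo rose by 2.39, with 9.02, 8.90, 8.91 and 8.95 in prepupae and 6.61, 6.35, 6.60 and 6.66 in larvae.

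Of 19 insulin and Hippo pathway genes, 2 rose at least 2-fold, foxo and kibra (1.88), and 4 fell (7 with centred arrays), led by Rassf (-2.72). The secretory pathway had no member 2-fold higher and 2 lower of 30 (median -0.03; 6 lower as deposited and 9 centred), the larger fall being that of the endoplasmic reticulum chaperone gene Hsc70-3 (-1.55). Heat shock and chaperone genes had 6 of 10 at least 2-fold lower (median -1.02). Hsp27 had 10.48, 10.90, 10.86 and 10.82 in prepupae and 13.63, 13.55, 13.60 and 13.61 in larvae, and Hsp26 fell by 1.85. Both groups had spent 16 h at 29 °C. In the eGFP line at 19 °C the list had a median step of -0.90, with 4 of 10 at least 2-fold lower. The part of heat in these falls was not tested.

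Genes that mark the wing field were over the array median in both groups. vg, the wing selector gene, had 10.26, 10.16, 10.27 and 10.35 in prepupae and 10.06, 9.96, 10.04 and 10.01 in larvae, a difference of 0.24 that became -0.18 on the values as deposited and -0.46 with centred arrays. For nub, a gene of the wing pouch, the difference was -0.13 (adjusted p = 0.176; 0.37 and 0.52 at the ends of its other probe sets), and for bi it was -0.12 (adjusted p = 0.232), with overlapping groups. Of 19 pouch and hinge genes, 2 were at least 2-fold higher, Dll (1.32) and rn (1.18, with -0.27 in another probe set), and 5 at least 2-fold lower. On the other scalings none was 2-fold higher, and 6 as deposited and 10 centred were lower.

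Those 5 included hinge and body wall genes that dropped to the low end of the scale. The zinc finger gene tsh, expressed in the proximal disc, had 4.20, 4.61, 4.23 and 4.71 in prepupae and 10.27, 10.43, 10.42 and 10.37 in larvae. Its paralogue tio fell by 2.73 and the hinge gene zfh2 by 3.69. The dorsal selector gene ap fell by 1.21, and salm, of the central wing, by 0.38. The gene nab, in which the driver sits, had 6.01, 5.95, 5.97 and 5.89 in prepupae and 7.22, 7.32, 7.22 and 7.25 in larvae (difference -1.29, SE 0.07, adjusted p = 4.84e-20).

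Notum genes were lower as a group, 10 of 14 at least 2-fold and none higher (median -1.80). The tendon gene sr had 3.36, 2.95, 3.17 and 3.29 in prepupae and 7.10, 7.17, 7.25 and 7.46 in larvae. The homeobox gene tup had 2.92, 2.94, 2.86 and 2.93 in prepupae and 6.68, 6.71, 6.64 and 6.68 in larvae. B-H2 fell by 3.31, the GATA factor gene pnr by 3.23 and eyg by 2.86. The prepupal values of these genes sat near or under the array median, while the summed linear level of the list was 5334 to 5568 in prepupae and 9908 to 10968 in larvae.

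Markers of adult muscle precursors, cells attached to the notum side of the disc, were split, with a median of -0.39 over 10 genes. twi had 3.95, 3.97, 3.96 and 4.06 in prepupae and 7.73, 7.53, 7.48 and 7.51 in larvae. Him fell by 4.19, the FGF receptor gene htl by 4.13 and Ama by 4.82. The summed level of the 10 listed genes was 742.5 to 776.7 in prepupae and 4940 to 5242 in larvae, with 4 genes at least 2-fold lower and 2 higher. The 2 higher genes were sns (2.15) and kirre (1.37), immunoglobulin genes of myoblast fusion, and zfh1 differed by 0.49, a sign that turned to -0.10 as deposited and -0.39 with centred arrays. In such bulk samples, fewer cells of a type and less RNA per cell cannot be told apart, and the part that dissection had in the falls of notum and myoblast genes was not tested.

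**Figure D4:**
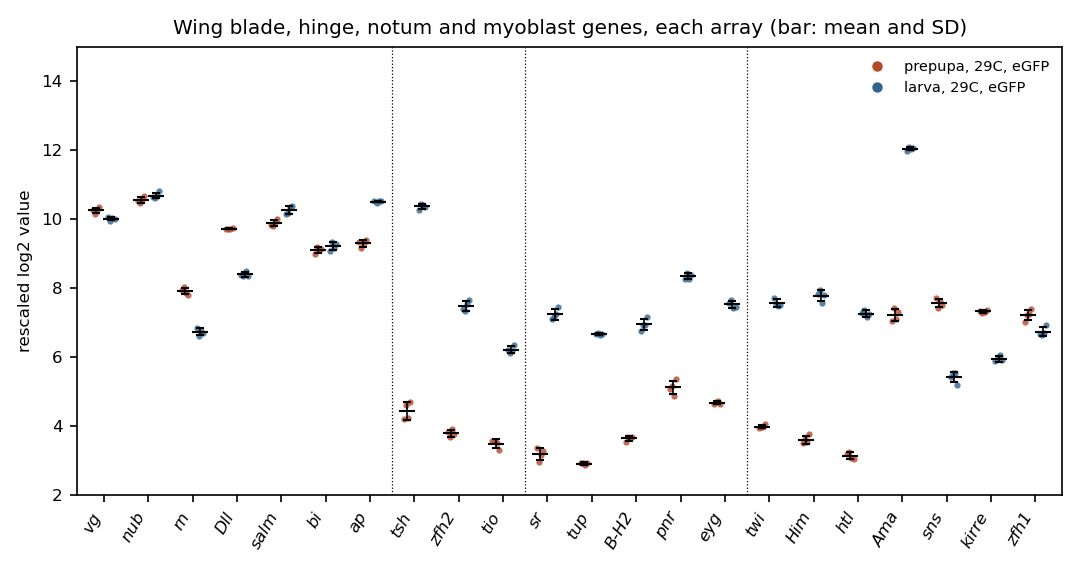
Rescaled log2 value (y axis) of each prepupal (left of each pair) and larval array, with the mean and SD of 4 arrays as bars, for genes of the wing field, the hinge and body wall, the notum and the adult muscle precursors (separated by dotted lines). Wing field genes stay between about 6 and 11 in both groups, whereas tsh, sr, tup, twi, Him and htl lie under 5 in prepupae.

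Markers of other tissues gave mixed lists. Haemocyte genes had 7 of 19 at least 2-fold higher (3 with centred arrays) and 4 lower, with summed levels of 6932 to 7032 in prepupae and 5666 to 6092 in larvae. The scavenger receptor gene Sr-CI rose by 2.51, srp, a blood cell GATA factor gene, by 2.03 and NimC1 by 1.85, while the crystal cell gene PPO1 fell by 2.23. The collagen IV genes vkg and Col4a1, which are made by haemocytes and fat body, rose by 1.74 and 1.72.

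Of 11 fat body genes, 1, the lipid transfer gene Apoltp (3.14), rose at least 2-fold; without larval replicate 3, 4 did. Their summed level was 1894 to 2268 in prepupae and, in larvae, 1425 to 1548 without replicate 3, which had 6909. Of 19 salivary gland genes, 4 were at least 2-fold lower and none higher, and 2 were over the array median in prepupae against 6 in larvae. Sums were 285.4 to 296.3 in prepupae and 384.8 to 1329 in larvae. Sgs7 had 3.99, 3.86, 4.39 and 4.19 in prepupae and 5.53, 9.25, 7.23 and 8.06 in larvae.

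Muscle genes had 2 of 18 higher and 2 lower at 2-fold, close to the 9.52% and 12.7% of all genes. The projectin gene bt rose by 3.86 and TpnC4 by 2.69, and the actin gene Act87E fell by 3.64; sums were 598.9 to 691.8 in prepupae and 556.9 to 586.4 in larvae. The tracheal list had 6 of 14 higher and 3 lower. The 6 were verm, Gasp, serp, uif (2.05), knk (1.79) and grh (1.00), of which verm, Gasp, serp and knk act in chitin formation or modification. The gene btl, the defining FGF receptor gene of trachea, fell by 1.09, with prepupal values of 3.97 to 4.46 against 5.08 to 5.44 in larvae. Neuron and glia genes had 3 of 18 higher, led by moody (2.32), and 1 lower, nrv2 (2 lower without larval replicate 3 or prepupal replicate 2 or 4).

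Of 19 proneural and sensory precursor genes, 11 were higher and 4 lower at an adjusted p under 0.05, 7 at least 2-fold higher and 1 lower (median 0.70; 3 lower with centred arrays). The 4 that passed neither way were the proneural genes ac (-0.12), sc (-0.02), l(1)sc (0.01) and ato (0.07). The homeobox gene pros had 8.20, 8.06, 8.19 and 8.33 in prepupae and 3.41, 3.63, 3.52 and 3.39 in larvae. sens, a zinc finger gene of sensory organ precursors, had 10.05, 10.09, 10.02 and 10.06 in prepupae and 6.64, 6.59, 6.57 and 6.68 in larvae. Both rose without overlap, by 4.71 and 3.43, and phyl, which acts in the same lineage, rose by 2.26 and hry by 1.82, whereas Brd fell by 2.68.

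Several Notch targets fell: of 18 pathway genes, none was 2-fold higher and 6 were 2-fold lower (median -0.45; 10 with centred arrays). E(spl)m4-BFM had 6.35, 6.22, 6.22 and 6.27 in prepupae and 9.38, 9.57, 8.43 and 9.26 in larvae. E(spl)m6-BFM (-2.34) and E(spl)mbeta-HLH (-1.46) also fell. Of 14 EGFR and vein genes, the feedback inhibitor gene aos rose by 1.75 and net, a repressor of vein fate, fell by 2.50, the only ones past 2-fold after rescaling, whereas 6 were lower as deposited and 8 with centred arrays. Of 25 genes of the axes and of Hedgehog and Dpp signalling, 2 passed it, ltl and magu (-3.75), both encoding secreted modulators of Dpp, and none rose 2-fold; 7 were lower as deposited and 10 with centred arrays. Of 5 Wnt genes, 1 was 2-fold lower (2 as deposited, 3 centred).

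Matrix and adhesion genes changed in both directions. Of 28, 11 were at least 2-fold higher and 5 lower (median 0.42). The counts were 5 higher and 5 lower as deposited, and 4 higher and 6 lower with centred arrays. The laminin gene wb rose by 2.67 by its brightest probe set, with -0.22 and 0.40 in the others. The integrin gene scb had 11.39, 10.93, 11.13 and 11.08 in prepupae and 8.73, 8.45, 8.64 and 8.47 in larvae. Ppn (-3.01) and the laminin gene LanA (-2.50) fell.

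Of 21 septate junction genes, 18 were lower and 5 at least 2-fold lower, against 40.7% and 12.7% of all genes. The median was -0.68 (8 were 2-fold lower as deposited and 16 centred), and cora (-1.74) and nrv2 (-1.70) led the falls. Of 23 genes of epithelial shape, 3 rose at least 2-fold and 1 fell (2 and 3 as deposited, 1 and 7 centred), and fog, the ligand gene for apical constriction, rose by 2.80. Planar polarity genes had 1 of 11 higher, app (1.55), which did not reach 2-fold on the other scalings, and 3 lower, in (-1.91), ds (-1.62) and Vang (-1.20). Among cell death genes, egr, a TNF ligand, rose by 1.06 and its receptor gene wgn fell by 1.64; of 14 such genes, 1 rose (none on the other scalings) and 3 fell at least 2-fold. Another probe set of egr differed by 0.16.

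Some members of small families outside these programmes changed strongly. Of 32 tetraspanin genes, 8 rose at least 2-fold and none fell (2 fell on either other scaling), led by Tsp5D (5.39). Of 47 odorant binding protein genes, 4 rose and 2 fell at least 2-fold, no more than the 9.52% and 12.7% of all genes. Obp83g had 13.20, 13.27, 13.21 and 13.28 in prepupae and 6.15, 6.27, 6.35 and 6.33 in larvae, whereas Obp56a had 3.54, 3.52, 3.46 and 3.74 in prepupae and 8.72, 9.16, 8.81 and 8.24 in larvae. Of 8 immune genes, 3 rose at least 2-fold, led by the NF-kappaB factor gene Rel (2.20).

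How far the step at 29 °C differed from the same step at 19 °C was tested on separate arrays, as the stage difference at 29 °C minus that at 19 °C in the eGFP line. At 19 °C the transgene was off and prepupae were taken 12.5 h after puparium formation, so temperature, transgene and the match of ages cannot be told apart. The difference passed 2-fold in 465 genes (3.88%) upward and 474 (3.96%) downward, and of the 2664 genes called 2-fold at 29 °C, 582 were among them. Of the 6.24% of probe sets past 2-fold, 49.5% differed upward after rescaling and 79.4% on the values as deposited, where the median of all probe sets was shifted by 0.30. Only 8 genes changed at least 2-fold in opposite directions at both temperatures.

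Cuticle genes were among the largest differences. Cpr72Eb averaged 10.84 ± 0.88 in prepupae and 5.03 ± 0.08 in larvae at 29 °C, against 4.51 ± 0.13 and 4.52 ± 0.18 at 19 °C (SD, n = 4 each), a difference between the steps of 5.83 (SE 0.33, limma adjusted p = 1.61e-18). Among the 29 °C prepupae it was at 9.53 in replicate 1 and at 11.20 to 11.37 in the others. The ABC transporter gene osy, needed for the outer lipid barrier of cuticle, averaged 11.54 ± 0.31 and 7.81 ± 0.05 at 29 °C against 7.05 ± 0.10 and 8.02 ± 0.07 at 19 °C, a difference of 4.70. Pu (4.85), Edg91 (4.35), Vajk3 (3.52) and Obp44a (3.34) also had the larger step at 29 °C, and Edg84A (3.29) and Edg78E (2.36) rose at both temperatures but further at 29 °C.

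In the other direction, Osi12 averaged 3.37 ± 0.03 in prepupae and 3.35 ± 0.10 in larvae at 29 °C, but 7.75 ± 0.11 and 3.13 ± 0.08 at 19 °C, a difference of -4.61. Osi1 (-4.56), Osi8 (-3.63) and Cyp4e1 (-4.39) likewise had the larger step at 19 °C. tok averaged 4.86 ± 0.38 and 10.81 ± 0.08 at 29 °C against 8.96 ± 0.15 and 10.82 ± 0.06 at 19 °C, and the inositol phosphate synthase gene Inos fell by 3.48 at 29 °C with a difference of -0.07 at 19 °C.

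By list, 18 of 81 genes of the Rebers and Riddiford family differed 2-fold upward and 6 downward, against 4 and 8 of 24 Osiris genes. Nuclear receptor genes differed too: the step in Hr39 was -1.19 at 29 °C and -2.80 at 19 °C, and that in EcR was 0.75 and -0.41. Secretory pathway genes had a median step of -0.03 at 29 °C and of 0.57 at 19 °C, with 4 of 30 differing 2-fold downward and none upward. The mitosis medians were -1.06 at 29 °C and -1.48 at 19 °C, with 1 of 42 genes differing 2-fold. Those of DNA replication were -0.64 and -0.79, with 8 and 16 genes at least 2-fold lower and 1 of 38 differing 2-fold. Those of ribosome biogenesis were -1.38 and -1.59, with 3 of 29 differing 2-fold. These list comparisons were made on rescaled values only. The shift of 0.30 in all probe sets as deposited is larger than the gaps of DNA replication and ribosome biogenesis.

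The step in the eGFP line was then set against the step in the line expressing Ubx, the Hox gene of the haltere, at the same temperature and ages. The difference passed 2-fold in 58 genes (0.484%) upward and 45 (0.376%) downward, and 80 of the 2664 genes called 2-fold in the eGFP line were among them. The Osiris median was 3.33 in the eGFP line and 3.26 in the Ubx line, and ftz-f1 rose by 7.35 and 7.50.

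Genes that rose further with eGFP included tau, a microtubule-binding protein gene, which averaged 8.85 ± 0.16 in prepupae and 3.05 ± 0.03 in larvae of the eGFP line, against 6.54 ± 0.15 and 3.03 ± 0.04 in the Ubx line (SD, n = 4 each; difference 2.30, SE 0.13, limma adjusted p = 4.74e-17). igl (2.38), Cpr50Ca (2.06), TpnC4 (1.64), CheA29a (1.54), Nna1 (1.45) and bt (1.44) followed. Larval means of igl, tau, Cpr50Ca and TpnC4 lay within 0.10 of each other in both lines.

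Downward, the transporter gene Esp averaged 4.53 ± 0.10 and 3.73 ± 0.09 in the eGFP line against 8.47 ± 0.21 and 3.78 ± 0.06 in the Ubx line, a difference of -3.90. The activin-like ligand gene daw averaged 5.17 ± 0.23 in prepupae and 6.46 ± 0.11 in larvae of the eGFP line, against 8.71 ± 0.36 and 6.73 ± 0.14 in the Ubx line. It was the only gene to change at least 2-fold in opposite directions in the lines (difference -3.27). Cpr49Ah (-2.40) and p-cup (-1.94) also differed. Vajk3 (-2.41) differed mainly in larvae, at 6.32 ± 0.15 with eGFP and 4.12 ± 0.26 with Ubx. Sarm differed by -2.14 through its brightest probe set and by -0.04 (adjusted p = 0.864) over the mean of its 9 probe sets. For nab, the step was -1.29 in the eGFP line and -0.03 in the Ubx line (difference -1.26), with prepupal means of 5.96 ± 0.05 and 7.92 ± 0.09.

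**Figure D5:**
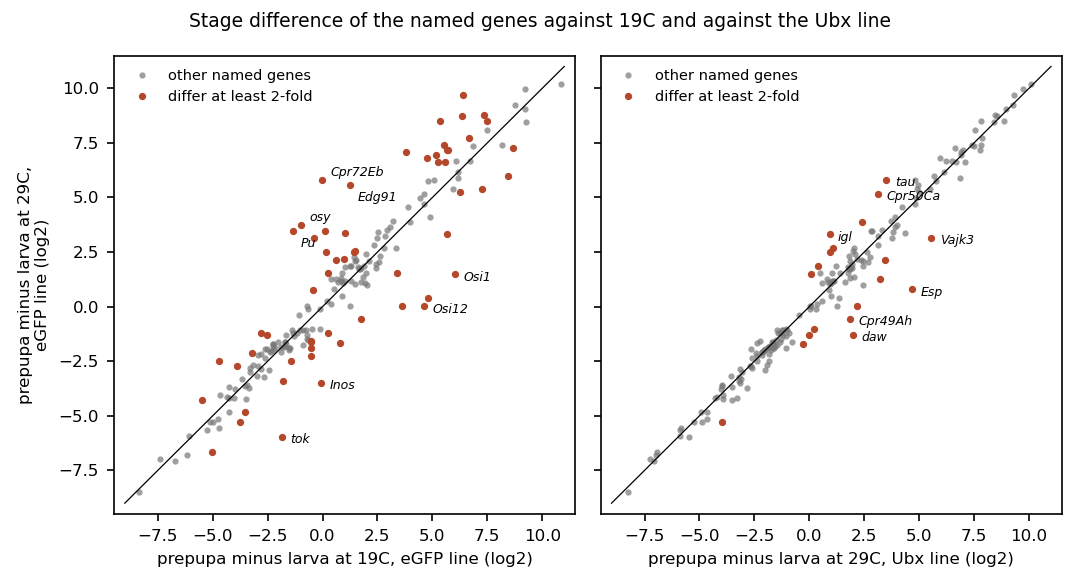
Prepupa minus larva log2 difference of the named genes at 29 °C in the eGFP line (y axis) against that at 19 °C in the eGFP line (x axis, left) and at 29 °C in the Ubx line (x axis, right). The line marks equal steps and red points differ at least 2-fold at an adjusted p under 0.05; Cpr72Eb and osy lie above the line and Osi12, Inos and tok below it on the left, and fewer genes leave it on the right.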

How the data were processed

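The deposited table held log2 values per probe set, which the submitters' processing notes say the authors made with RMA. Its version is not given in the sources used here, and the log base was read from the range, 2.37 to 14.6. Distributions agreed within each of 6 sets of stage and temperature (mean gap at most 0.0612) and differed between sets (at least 0.103), so the sets appear to have been normalised apart.

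All 48 arrays were quantile rescaled together and fitted with group means in limma 3.58.1 (R 4.3.3; 36 residual and 5.04 prior degrees of freedom). Prepupa minus larva was tested two-sided on 18769 probe sets, after 183 array controls were left out, with Benjamini-Hochberg adjustment over all of them, and a call needed an adjusted p under 0.05. The differences from 19 °C and from the Ubx line are interaction terms. The labels call the arrays biological replicates. Their number limits the precision.

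Supplied annotation gave 13647 probe sets 1 symbol, 402 several and 4720 none, and probe sets with several symbols were not named. Each gene was read through its brightest probe set (mean of the 48 arrays). The 43 gene lists and the members were chosen with earlier results of these data known. The naming rule took nab, the 12 largest rises and falls with groups that do not overlap, up to 5 called members per list (12 for ecdysone factors) and the 6 largest differences each way in each interaction, without genes known only by a CG number. The wing markers came from a fixed marker list; EcR, usp, the ImpE genes, Sb, trbl, kirre, zfh1, btl, uif, knk, grh, ac, sc, l(1)sc, ato, Lsp2, Fbp1, Col4a1, mRpS17 and the remaining lower cuticle, chitin and yellow genes were named after their values were seen.

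On simulated data with 100 of 18769 probe sets changed per fold size, the stage test called 93, 100 and 100 percent at 1.5-, 2- and 4-fold. Of all its calls, 4.87 percent were false. The simulated noise was normal, independent between probe sets and not rescaled. The simulation therefore checks the fit and cannot test the effect of the scaling or of correlated genes. The replicate numbers did not pair the arrays (correlations of -0.017 to 0.060 between same-numbered deviations). Alternatives were scaling, the fit to 8 arrays alone, a variance trend, a replicate block, a filter on dim probe sets, the fold threshold, the choice of probe set and each array left out. Tables were made in Python 3.11.15 (pandas 2.3.3, numpy 2.4.6) and figures with matplotlib 3.10.9.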

Additional observations from a re-analysis of the deposited data

Results flagged for a closer look

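Among 196 genes, 392 groups of 4 arrays were checked for an array far from the others (by Dixon's critical value), and 31 groups held one; chance gives about 1 in 20 groups. Over all 11982 genes such arrays were 0.843 to 1.76 percent of genes per array, highest in prepupal replicate 1. In prepupal replicate 1 the far log2 value was that of Edg84A (13.72), Lcp65Ad (14.07), Cpr100A (12.32), Twdlbeta (12.88), TwdlT (14.13), exp (12.79), Bub3 (9.814), Treh (9.81), Cpr72Eb (9.526), osy (11.08), esg (7.718) and Rel (11.02). In prepupal replicate 3 the far log2 value was that of Cpr49Ag (5.111), mad2 (7.999) and moody (8.971). In prepupal replicate 4 the far log2 value was that of twi (4.062) and ND-B12 (5.424). In larval replicate 1 the far log2 value was that of La (10.44) and Osi1 (4.138). In larval replicate 2 the far log2 value was that of ImpE2 (13.41), mad2 (9.987) and net (7.584). In larval replicate 3 the far log2 value was that of Osi15 (3.73), obst-E (4.878), E(spl)mbeta-HLH (11.03), phyl (5.888), Lsp2 (11.5) and Fbp1 (10.51). In larval replicate 4 the far log2 value was that of nw (13.09), igl (3.266) and zfh1 (6.926). For Lsp2 the other larval arrays lay at 5.581 to 6.426 and for Fbp1 at 5.089 to 5.237, and for Cpr72Eb the other prepupal arrays at 11.2 to 11.37. Some flags rest on very small gaps. The other larval arrays lay at 13.42 for ImpE2 and 13.11 for nw, and the other prepupal arrays at 14.09 for TwdlT.

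The step at 29 °C minus the step at 19 °C in the eGFP line passed 2-fold, as a limma interaction term, in 58 of these genes (log2 difference in brackets). It was positive for Eip93F (1.52), Hr39 (1.616), EcR (1.165), Edg84A (3.294), Edg78E (2.359), Edg91 (4.345), St3 (1.058), Cpr100A (1.423), Cpr78Cc (3.31), Cpr64Aa (1.195), Twdlbeta (3.192), Osi15 (1.034), Osi20 (1.872), Osi19 (1.436), Vajk1 (1.043), Vajk2 (2.321), Vajk3 (3.516), Cda5 (1.514), obst-E (1.378), Ddc (2.017), Pu (4.85), pths (1.079), net (2.192), scb (1.079), Sr-CI (1.065), Cpr72Eb (5.826), osy (4.697), Obp44a (3.336), CheA29a (2.346), daw (1.253), Obp83g (1.793), Rel (1.236), app (1.289) and Rassf (1.165). It was negative for Hr3 (-1.828), ImpL1 (-2.448), Cyp18a1 (-1.03), ImpE1 (-2.469), ImpE2 (-1.719), Ance (-1.639), tok (-4.101), hui (-1.511), Cpr78E (-1.437), Osi7 (-1.389), Cht5 (-1.352), Cht10 (-1.108), dy (-1.868), Ama (-1.283), LanA (-1.078), Osi12 (-4.609), Osi1 (-4.563), Osi8 (-3.627), Cyp4e1 (-4.389), Inos (-3.41), igl (-2.335), Cpr49Ah (-2.285), Sgs7 (-1.6) and Hsc70-3 (-1.007).

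The step in the eGFP line minus that in the Ubx line at 29 °C passed 2-fold in 19 of them. It was positive for bt (1.443), Osi1 (1.409), igl (2.385), tau (2.295), Cpr50Ca (2.059), TpnC4 (1.637), CheA29a (1.542) and Nna1 (1.446). It was negative for Sb (-1.277), Vajk3 (-2.41), nab (-1.264), sns (-1.309), ltl (-1.321), nrv2 (-1.436), Esp (-3.896), daw (-3.273), Cpr49Ah (-2.399), p-cup (-1.936) and Sarm (-2.136).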

How the results depend on the processing

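Scaling mattered most. Probe sets at least 2-fold lower in prepupae numbered 1842 after rescaling, 3159 as deposited and 4263 with centred arrays, and a 1.5-fold threshold gave 2360 higher and 3156 lower. Differences between the steps at 29 °C and 19 °C as deposited passed 2-fold upward in 1178 and downward in 306 probe sets. Medians that changed sign were, as deposited, those of ecdysone factors (-0.2079), ribosome (0.08785), autophagy (-0.3934), muscle (0.02388) and odorant binding proteins (0.08658), and, with centred arrays, those of ecdysone factors (-0.4906), ecdysone genes of discs (-0.1162), autophagy (-0.6761), haemocytes (-0.0409), trachea (-0.06121), neurons and glia (-0.06926) and tetraspanins (-0.02112). Genes that changed sign as deposited were usp (-0.6338), vg (-0.179), Sarm (-0.72) and zfh1 (-0.1047), and with centred arrays usp (-0.9166), vg (-0.4617), Sarm (-1.003), zfh1 (-0.3874), EcR (-0.2752) and Osi12 (-0.2025). When all probe sets of each gene were averaged, br (-1.76) and ImpE1 (0.1626) turned, as did the difference of St3 between temperatures (-0.06095). Beyond the scalings' own construction, the cause was not tested. Leaving out each array in turn gave 11889 to 11952 stage calls, 1437 to 1452 at least 2-fold higher and 1820 to 1859 lower. With the replicate number as a block, the pairing gave 12361 calls, 1440 higher and 1842 lower, and with the 8 arrays alone 12309, 1440 and 1823; 2 of 4 arrays matched their own number best. Signal over background was not at hand, so low values carry no detection limit.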
